A study of Mus musculus with 17 samples.

Results

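The genes described here are 37 listed genes of the motile cilium and of the ciliated cells of the airway, found on the array by gene symbol. The list was drawn up with earlier results of these data known, and no test was made over it. Of the 37 genes, 36 were measured, out of 19751 genes on the array. Tubb4b, the tubulin of the list, is covered only by probe sets that carry several symbols and is not analysed here. Lung RNA of each of 17 Balb/c mice was hybridised to an Affymetrix Mouse Gene 1.0 ST array. The saline group held 6 mice that had saline for sensitization and for challenge. The isotype group held 5 mice that had ovalbumin (OVA, the allergen) and an isotype antibody, and the anti-RGMb group held 6 mice that had OVA and a monoclonal antibody against RGMb, a membrane protein that binds neogenin and bone morphogenetic proteins. No antibody is named for the saline mice, and no group had anti-RGMb without OVA, so the effects of OVA and of the isotype antibody cannot be told apart here, and what anti-RGMb does to a lung without allergen was not measured. All lungs were taken at the same point of the treatment; the sources used here give no age or genotype. The mice came from 2 experiments, of 3 mice per group in experiment 1 and of 3 saline, 2 isotype and 3 anti-RGMb mice in experiment 2, whose mice are written 1-2, 2-2 and 3-2.

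Motile cilia are the beating hairs of multiciliated airway cells, which move mucus out of the lung. Each is built on an axoneme, a ring of doublet microtubules around a central pair. Dynein motors slide the doublets, nexin links and radial spokes regulate that sliding, and intraflagellar transport carries the parts to the growing tip. The transcription factors Foxj1, Rfx2 and Rfx3 switch on the genes for these parts, and Ccno and other regulators drive the making of many basal bodies. In allergic airway disease the airway epithelium is known for a rise of mucus-making goblet cells among the ciliated and club cells. Whole lung contains few ciliated cells, so a fall of these RNAs can come from a smaller share of such cells in the tissue or from less RNA per cell. A smaller share can come with fewer ciliated cells or with more of other cells. These cannot be told apart in bulk tissue.

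The labelled tissue was checked against its markers: the surfactant gene Sftpc, the club cell gene Scgb1a1 and the alveolar type 1 gene Ager lay at or above the 99.3rd percentile of all genes on each of the 17 arrays. No cilium gene was among the dimmest 25% of genes in all 6 saline mice. Arrays of experiment 1 had median intensities of 120 to 125 and those of experiment 2 of 362 to 386, so values are given as log2 units relative to the mean of the saline mice of the same experiment. A fall of 1 unit is a fall to 1 in 2 of the starting intensity. Differences between groups come from a limma fit over all genes with the experiment as a term, and a gene is said to have risen or fallen where its 2-sided Benjamini-Hochberg adjusted p over all 19751 genes was under 0.05. Errors after ± are standard errors unless SD is written. The labels name separate mice, and the p-values measure the spread between them.

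RFX factors bind the X-box, and the promoters of the cilium genes were searched for its letters because the list holds 2 of these factors. RefSeq promoter windows (GRCm38.p6, 250 bases before to 50 after the start) were matched by symbol for 32 of the 37 genes; Foxj1, Tppp3, Rsph1, Rsph4a and Dnah3 had no window in the table. The core GTTGCC, on either strand, was in 22 of the 32 (68.8%) and in 14.1% of all 27025 genes with windows of that length. A strict form of the full X-box (GTTNCC and GGNAAC with exactly 2 bases between them) was in none of the 32 and in 0.529% of all genes. Other spacings and looser arms were not searched, and Ift57 holds both arms at another spacing. The forkhead letters TGTTTAC, either strand, were in Ak7 and Mlf1 (6.25%, against 4.05% of all genes). The windows below show the core in capitals, 5′ to 3′ on the gene's own strand, cut at the start of transcription where it lies nearer than 13 bases. They were picked to show genes that fell (Cdhr3, Enkur, Tekt2, Dynlrb2, Hydin and Lrriq1), the gene that rose (Ccno) and one of the RFX genes (Rfx2).
Cdhr3: tggtttcctgcctGGCAAC
Enkur: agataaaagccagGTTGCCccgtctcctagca
Tekt2: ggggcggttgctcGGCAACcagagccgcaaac
Dynlrb2: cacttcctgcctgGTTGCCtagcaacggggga
Hydin: ctgcggttgctgtGGCAACagatggt
Lrriq1: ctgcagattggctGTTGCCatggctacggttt
Ccno: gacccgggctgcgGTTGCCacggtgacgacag
Rfx2: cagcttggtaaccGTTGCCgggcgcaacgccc
These windows lie at chr12:33092876-33092894 (minus strand) for Cdhr3, chr2:21205381-21205412 (minus) for Enkur, chr4:126325692-126325723 (minus) for Tekt2, chr8:116504951-116504982 (plus) for Dynlrb2 and chr8:110266951-110266976 (plus) for Hydin. Those of Lrriq1, Ccno and Rfx2 lie at chr10:103236323-103236354 (minus), chr13:112987570-112987601 (plus) and chr17:56831106-56831137 (minus). GGCAAC is the same core read on the other strand. Of 28 cores in the 22 genes, 21 lay wholly before the start, 19 of them within 150 bases of it. A match is a description of these letters and not a binding site. The forkhead match of Ak7, in capitals, lies at chr12:105705838-105705870 (plus).
Ak7: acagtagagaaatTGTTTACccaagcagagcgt

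In OVA-exposed mice given the isotype antibody, nearly the whole set of cilium genes was lower than in saline mice. Of the 36 genes, 31 fell (86.1%), 1 rose and 4 did not pass the test, where 21.0% of all genes fell and 14.6% rose. Their median log2 change was -0.42, with a range from -1.18 to 0.43, against -0.04 over all genes. The groups did not overlap, with every isotype mouse below every saline mouse, for 18 of the 36, as for 12.9% of all genes. For Ccno every isotype mouse lay above every saline mouse, as for 10.6% of all genes. The falls were mostly under 2-fold: Tppp3 and Rsph4a were the 2 genes that fell 2-fold or more.

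**Figure D1:**
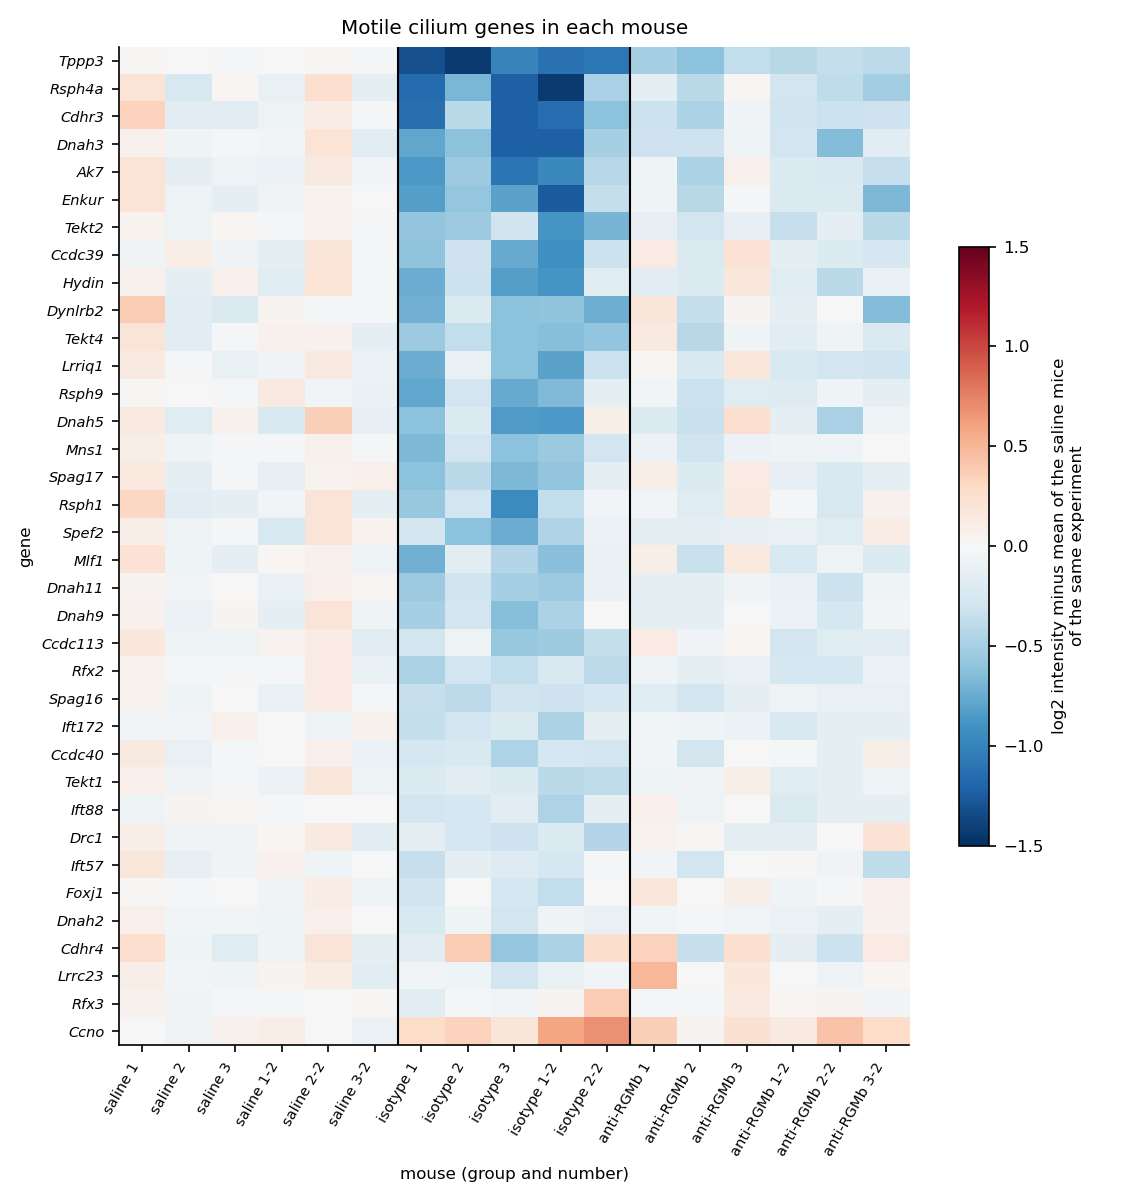
Log2 value of each of the 36 cilium genes (vertical) in each of the 17 mice (horizontal, by group and experiment), relative to the mean of the saline mice of the same experiment. The 5 isotype mice are lower for most genes, with Ccno as the gene that rose, and the 6 anti-RGMb mice lie nearer to saline.

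Among the regulators, the genes did not move together. Foxj1, the forkhead factor that commits cells to motile cilia, stood at -0.30, 0.01 and -0.26 in isotype mice 1, 2 and 3 and at -0.37 and -0.01 in isotype mice 1-2 and 2-2. Its saline values ran from -0.06 to 0.11 with a median of -0.01, and its anti-RGMb values from -0.06 to 0.17 with a median of 0.05. Isotype mice 1, 3 and 1-2 were thus below every saline mouse and isotype mice 2 and 2-2 were among them. Foxj1 fell by 0.19 ± 0.07 against saline (limma adjusted p = 0.0437). That call was lost in 13 of the 17 fits that left out 1 mouse, with adjusted p up to 0.149 without isotype mouse 1-2. The 4 fits that kept it left out isotype mouse 2, isotype mouse 2-2, anti-RGMb mouse 1 and anti-RGMb mouse 3-2. It was also lost with only the isotype and saline mice in the fit (adjusted p = 0.0846). The difference itself shrank to -0.03 (adjusted p = 0.857) with the heart and muscle marker level of each mouse as a term, and to -0.06 (adjusted p = 0.497) with arrays centred on general epithelial markers, settings chosen after the data were seen and described with the markers of other cells.

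Rfx2, which works with Foxj1 on ciliary promoters, fell by 0.35 ± 0.06 (adjusted p = 7.0e-05), and its isotype and saline mice did not overlap. Rfx3, another factor of the same family that also serves primary cilia, was at -0.16, -0.02, -0.04, 0.04 and 0.38 in isotype mice 1, 2, 3, 1-2 and 2-2. Its saline mice lay between -0.05 and 0.07 and its anti-RGMb mice between -0.04 and 0.13, with medians of 0.00 and 0.01. Only isotype mice 1 and 2-2 lay outside the saline range, on opposite sides of it. The Rfx3 difference was 0.05 ± 0.07 (adjusted p = 0.658).

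Ccno, a cyclin-like protein needed to make the many basal bodies of a multiciliated cell, was the member that rose. It was at 0.28, 0.34 and 0.18 in isotype mice 1, 2 and 3 and at 0.59 and 0.69 in isotype mice 1-2 and 2-2, while the saline mice lay between -0.09 and 0.10. Every isotype mouse was above every saline mouse, and the values of experiment 2 were the higher ones. The rise was 0.43 ± 0.08 log2 units, a 1.35-fold level (adjusted p = 3.4e-04). Within experiments it was 0.27 (adjusted p = 0.0533) and 0.64 (adjusted p = 1.6e-04; 13.7% of all genes rose in experiment 2), and the difference between the experiments did not pass the test (adjusted p = 0.312). Ccno was among the dimmest 40% of genes, and its values by mouse were chosen for printing after its direction was seen.

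The dynein motor genes fell without exception. The median change of the 6 was -0.44. Dnah3, an inner arm heavy chain, had the largest fall of them. Its values were -0.78, -0.61, -1.23, -1.23 and -0.50 in isotype mice 1, 2, 3, 1-2 and 2-2, while the saline mice lay between -0.16 and 0.20 with a median of -0.03. The highest isotype mouse was below the lowest saline mouse. Dnah3 fell by 0.88 ± 0.13, to 0.545 of the saline level (adjusted p = 3.2e-05). Its 6 probe sets, which share the same mice, all had a change below 0, from -1.09 to -0.54.

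The other motor genes fell less. Dynlrb2, a dynein light chain of ciliated cells, fell by 0.59 ± 0.14 (adjusted p = 0.0022), and the outer arm heavy chain genes Dnah11 and Dnah9 fell by 0.40 ± 0.08 (adjusted p = 4.0e-04) and 0.38 ± 0.09 (adjusted p = 0.0031). Dnah5, another outer arm heavy chain and a frequent gene of primary ciliary dyskinesia, fell by 0.49 with a larger error of 0.17 (adjusted p = 0.0294). Dnah2, an inner arm chain, fell by 0.15 ± 0.05 (adjusted p = 0.0396). Leaving out 1 mouse ended the Dnah5 call in 6 of 17 fits (saline mice 1, 3 and 2-2, isotype mice 1, 3 and 1-2; adjusted p up to 0.109). It ended the Dnah2 call in 8 (saline mice 1, 2, 3, 2-2 and 3-2, isotype mice 1 and 3, anti-RGMb mouse 3; adjusted p up to 0.107). With the heart and muscle level as a term the Dnah5 difference was 0.00 (adjusted p = 0.992) and that of Dnah2 -0.03 (adjusted p = 0.818). With arrays centred on general epithelial markers they were -0.36 (adjusted p = 0.076) and -0.02 (adjusted p = 0.852).

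The tektins, filament proteins inside the doublet microtubules, fell as a group of 3, with a median of -0.56. Tekt2 fell by 0.62 ± 0.07 (adjusted p = 3.6e-06), Tekt4 by 0.56 ± 0.09 (adjusted p = 5.8e-05) and Tekt1 by 0.28 ± 0.06 (adjusted p = 8.6e-04). For each of them the isotype and saline mice did not overlap. Tppp3, a protein that binds and bundles tubulin and is used as a marker of ciliated cells, had the largest change of the 36 genes. It was also the brightest, at log2 intensities of 10.72 and 13.08 in saline mice of experiments 1 and 2. No other member was above 8.84 and 9.73 there. Tppp3 stood at -1.32, -1.44, -1.0, -1.12 and -1.08 in isotype mice 1, 2, 3, 1-2 and 2-2. Isotype mouse 2 was thus the lowest, though it was above isotype mice 1 and 3 for 28 of the 36 genes. The 6 saline mice lay between -0.02 and 0.02 and the 6 anti-RGMb mice between -0.62 and -0.36, with a median of -0.40. The 3 groups did not overlap, with the anti-RGMb mice in between. Tppp3 fell by 1.18 ± 0.07 against saline, to 0.441 of its level (adjusted p = 5.0e-10).

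**Figure D2:**
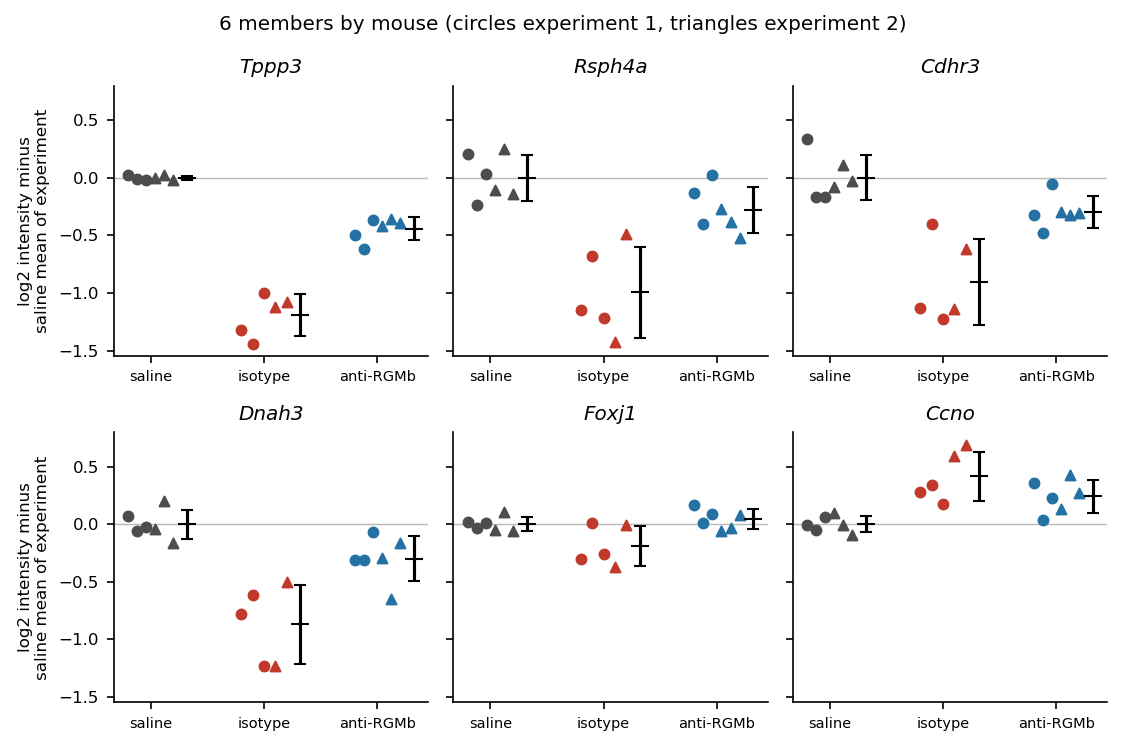
Log2 values of 6 cilium genes by mouse (points), relative to the mean of the saline mice of the same experiment, in saline, isotype and anti-RGMb mice, with the group mean and SD. Tppp3 separates the 3 groups, with isotype mice between -1.44 and -1.0, and Ccno is the gene whose isotype mice lie above the saline mice.

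Radial spoke and nexin genes gave 6 falls and 1 gene that did not pass, with a median of -0.44. Rsph4a, a spoke head protein, was at -1.15, -0.68, -1.22, -1.43 and -0.49 in isotype mice 1, 2, 3, 1-2 and 2-2. Its saline mice lay between -0.24 and 0.25 with a median of -0.04, so the groups did not overlap. Rsph4a fell by 1.00 ± 0.15, to 0.499 of the saline level (adjusted p = 3.5e-05). The spoke head gene Rsph9 fell by 0.52 ± 0.10 (adjusted p = 4.3e-04) and the spoke gene Rsph1 by 0.44 ± 0.13 (adjusted p = 0.0126). Ccdc39 and Ccdc40, which together set the repeat along the axoneme, fell by 0.59 ± 0.11 (adjusted p = 3.1e-04) and 0.29 ± 0.07 (adjusted p = 0.00182), and Drc1, a nexin link protein, by 0.27 ± 0.07 (adjusted p = 0.00723).

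Lrrc23, a spoke protein, was the exception in this group. It was at -0.04, -0.07, -0.29, -0.10 and -0.04 in isotype mice 1, 2, 3, 1-2 and 2-2, and its saline mice lay between -0.16 and 0.11 with a median of 0.00. Its anti-RGMb mice lay between -0.05 and 0.50. Isotype mouse 3 alone was below the saline range, and the difference of -0.11 ± 0.09 did not pass the test (adjusted p = 0.36).

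All 5 genes listed for the central pair fell, with a median of -0.48. Ak7, an adenylate kinase of motile cilia, was at -0.86, -0.55, -1.10, -0.97 and -0.43 in isotype mice 1, 2, 3, 1-2 and 2-2, against saline mice between -0.13 and 0.21 with a median of -0.06. The groups did not overlap, and Ak7 fell by 0.78 ± 0.12, to 0.581 of the saline level (adjusted p = 4.0e-05). Hydin, a large central pair protein, fell by 0.59 ± 0.13 (adjusted p = 0.00104), Spag17 by 0.48 ± 0.09 (adjusted p = 5.2e-04) and Spag16 by 0.32 ± 0.05 (adjusted p = 3.7e-05). Spef2, also of the central pair, fell by 0.42 ± 0.10 (adjusted p = 0.00228). All of its 21 probe sets, read in the same mice, had a change below 0, from -0.67 to -0.19.

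All 5 remaining genes of the axoneme and cytoplasm fell, with a median of -0.48. Enkur, a protein inside the doublet that binds calmodulin, was at -0.83, -0.58, -0.80, -1.25 and -0.36 in isotype mice 1, 2, 3, 1-2 and 2-2, against saline mice between -0.14 and 0.21 with a median of -0.03. The groups did not overlap, and Enkur fell by 0.77 ± 0.13, to 0.586 of the saline level (adjusted p = 1.5e-04). Lrriq1 fell by 0.53 ± 0.11 (adjusted p = 0.00108), Mns1, a protein of the doublet lumen, by 0.48 ± 0.07 (adjusted p = 3.6e-05), Mlf1 by 0.41 ± 0.11 (adjusted p = 0.00805) and Ccdc113 by 0.38 ± 0.08 (adjusted p = 0.00172).

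Intraflagellar transport genes, which primary cilia also need, changed little. Ift172 fell by 0.30 ± 0.06 (adjusted p = 5.0e-04) and Ift88 by 0.27 ± 0.06 (adjusted p = 0.00111), while Ift57 had a difference of -0.19 ± 0.08 (adjusted p = 0.0816). The 7 members that are used outside motile cilia as well had a median change of -0.30, with 5 falls, and the other 29 a median of -0.48, with 26 falls; no test was made between them. The cadherin-related surface genes differed from each other. Cdhr3, a ciliated cell protein used by rhinovirus C as a receptor, was at -1.13, -0.40, -1.23, -1.14 and -0.62 in isotype mice 1, 2, 3, 1-2 and 2-2, against saline mice between -0.17 and 0.34 with a median of -0.06. The groups did not overlap, and Cdhr3 fell by 0.90 ± 0.14, to 0.535 of the saline level (adjusted p = 4.5e-05). Cdhr4 had a difference of -0.12 ± 0.17 (adjusted p = 0.647).

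Both experiments gave a lower level. Within experiment 1, 23 of the 36 genes fell (11.6% of all genes fell there), with a median of -0.48, and within experiment 2, 21 fell (15.8% of all genes), with a median of -0.36. The sign was the same in both for 35 of 36. No member's difference changed between the experiments past the test for interaction (0 called, 3 with unadjusted p under 0.05, smallest adjusted p = 0.312, limma), as 0.668% of all genes did.

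**Figure D3:**
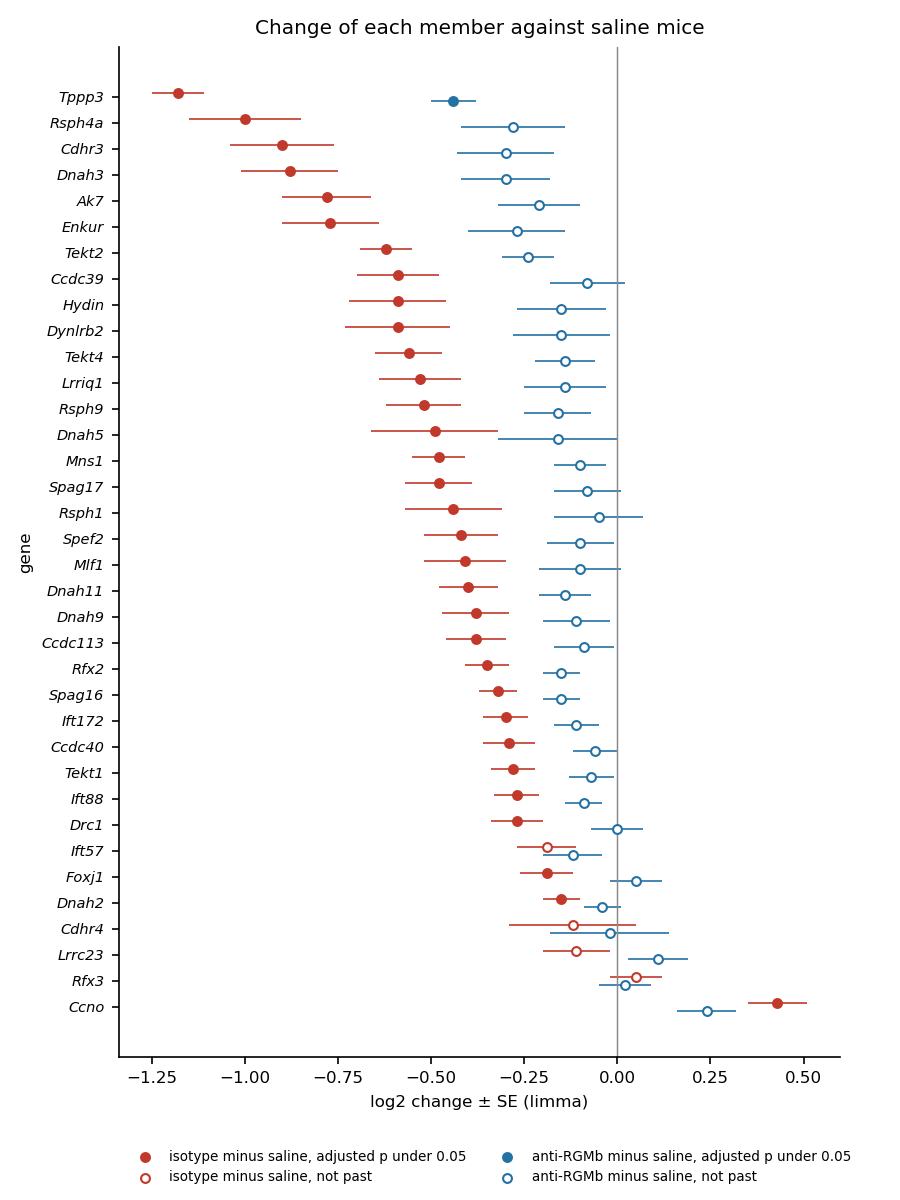
Log2 change of each of the 36 cilium genes (horizontal axis, with standard error bars) in isotype minus saline and in anti-RGMb minus saline, ordered by the change in isotype minus saline. In isotype minus saline 31 genes fell, and in anti-RGMb minus saline Tppp3 was the gene that passed the test.

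In OVA-exposed mice, the cilium genes were higher with anti-RGMb than with the isotype antibody. Of the 36 genes 28 rose (77.8%), 0 fell and 8 did not pass the test, where 11.1% of all genes rose and 10.0% fell; at an unadjusted p under 0.05, 30 were higher and 1 lower (limma). The median log2 change was 0.32, from -0.19 to 0.74, against 0.03 over all genes. This comparison shares the isotype mice with the one before, so an opposite sign in the 2 is in part built in, and each is given for its own values. The 28 genes that rose were all among the 31 that had fallen. For most genes single mice of the 2 groups overlapped: every anti-RGMb mouse was above every isotype mouse for Tppp3, Ccdc39 and Drc1 (3 genes, where 4.89% of all genes did so).

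Rsph4a rose by 0.72 ± 0.15, a 1.65-fold level (adjusted p = 0.00194); its anti-RGMb mice lay between -0.52 and 0.02, with a median of -0.33, and overlapped isotype mouse 2-2 at -0.49. Tppp3 rose by 0.74 ± 0.07, 1.67-fold (adjusted p = 2.4e-06), with no overlap of the groups. Cdhr3 rose by 0.61 ± 0.14 (adjusted p = 0.00393), with anti-RGMb mice between -0.48 and -0.05 and isotype mouse 2 at -0.40 among them. Isotype mouse 2-2 alone reached the anti-RGMb range in Rsph4a and isotype mouse 2 alone in Cdhr3, and no isotype mouse did in Tppp3. For 19 of the 36 genes isotype mice 2 and 2-2 were the highest 2 isotype mice. Dnah3 rose by 0.58 ± 0.13 (adjusted p = 0.00349), with anti-RGMb mice between -0.65 and -0.07. Ak7 rose by 0.58 ± 0.12 (adjusted p = 0.00178), with anti-RGMb mice between -0.47 and 0.08. Enkur rose by 0.50 ± 0.13 (adjusted p = 0.0108), with anti-RGMb mice between -0.67 and -0.02. Isotype mouse 2-2 lay inside the anti-RGMb range for these 3 genes, and isotype mouse 2 for Dnah3 and Enkur.

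By role, all 5 central pair genes and all 3 tektins rose, with medians of 0.40 and 0.38. Hydin rose by 0.45, Spag17 by 0.40, Spef2 by 0.32 and Spag16 by 0.17, and Tekt4 rose by 0.42, Tekt2 by 0.38 and Tekt1 by 0.21. Of the 7 spoke and nexin genes 6 rose: besides Rsph4a these were Ccdc39 (0.51), Rsph1 (0.39), Rsph9 (0.36), Drc1 (0.27) and Ccdc40 (0.23). Of the 5 other axonemal genes 4 rose, namely Enkur, Lrriq1 (0.39), Mns1 (0.38) and Ccdc113 (0.29).

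Of the 6 motor genes 4 rose, with Dynlrb2 at 0.43, Dnah9 at 0.27 and Dnah11 at 0.26 beside Dnah3. The regulators Foxj1 and Rfx2 rose by 0.23 ± 0.07 (adjusted p = 0.0224) and 0.20 ± 0.06 (adjusted p = 0.0148), and Ift172 and Ift88 by 0.19 and 0.18. Some of the rises were fragile over the settings tried, with the fits that left out 1 mouse included. The call was lost in 19 settings for Dnah9, 15 for Rsph1, 13 for Ift172, 12 for Dynlrb2 and Ift88, and 10 for Foxj1. For Tppp3 and Mns1 it was lost in 1. The differences that did not pass the test were those of Dnah5 (0.32, adjusted p = 0.198), Mlf1 (0.31, adjusted p = 0.0597), Lrrc23 (0.22, adjusted p = 0.0807), Cdhr4 (0.11), Dnah2 (0.10), Ift57 (0.07), Rfx3 (-0.03) and Ccno (-0.19, adjusted p = 0.112). Ccno thus had an opposite sign to the genes for ciliary parts in both comparisons, with the test passed in the first.

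Without isotype mouse 1-2, 17 cilium genes rose against isotype in place of 28; of the 28, 16 rose in every one of the 17 fits that left out 1 mouse. Within experiments the comparison had fewer mice: 8 genes rose in experiment 1 (median 0.37; 3.35% of all genes rose there) and 6 rose and Ccno fell in experiment 2 (median 0.23; 8.63% of all genes rose and 11.3% fell there). The sign was the same in both experiments for 34 of 36, and no interaction passed the test (0 called, 2 at unadjusted p under 0.05, smallest adjusted p = 0.36, limma; 0.471% of all genes).

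Between anti-RGMb and saline mice most cilium genes differed little. Tppp3 fell by 0.44 ± 0.06, to 0.735 of the saline level (adjusted p = 1.8e-04), and was the 1 gene of the 36 that passed; 2.24% of all genes fell and 4.26% rose. None of the 36 rose, and at an unadjusted p under 0.05, 1 was higher and 7 were lower (limma). The median change was -0.11, from -0.44 to 0.24, with 31 genes below 0, against -0.01 over all genes. Every anti-RGMb mouse was below every saline mouse for Tppp3 and Tekt2, as for 2.66% of all genes. Tekt2 had a difference of -0.24 ± 0.07 (adjusted p = 0.0549), Ccno of 0.24 ± 0.08 (adjusted p = 0.0704) and Foxj1 of 0.05 ± 0.07 (adjusted p = 0.805). A p that misses the threshold does not show that these levels are equal: with standard errors up to 0.16, small differences were not detectable in these mice. No interaction passed the test (0 called, 0 at unadjusted p under 0.05, smallest adjusted p = 0.983, limma; 0.00% of all genes), and the medians within experiments 1 and 2 were -0.08 and -0.16.

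**Figure D4:**
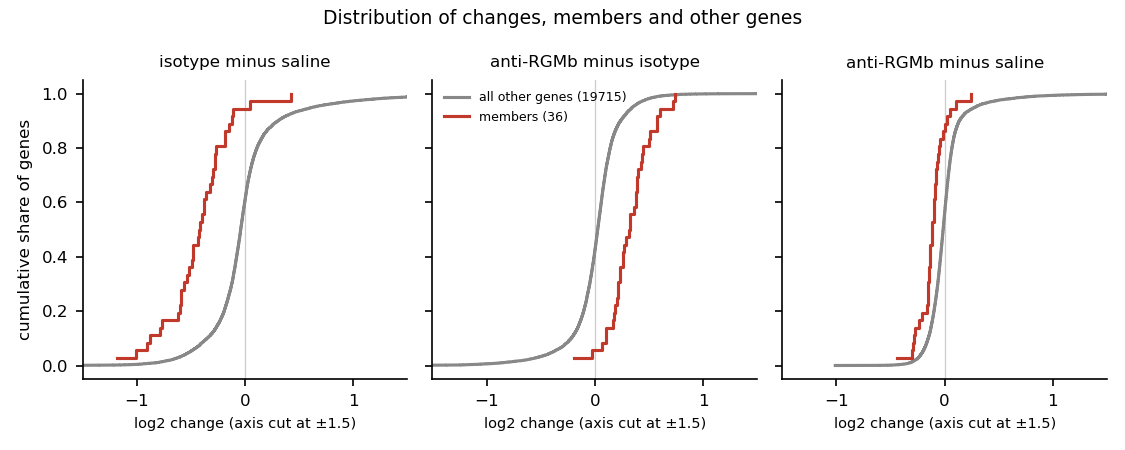
Cumulative share of genes (vertical) against log2 change (horizontal, cut at 1.5 units on either side) for the 36 cilium genes and for all other genes, in the 3 comparisons. The cilium genes lie to the left in isotype minus saline (median -0.42) and to the right in anti-RGMb minus isotype (median 0.32), and nearer to the other genes in anti-RGMb minus saline (median -0.11).

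The level of a mouse, the mean over the 36 genes, was -0.08 to 0.11 in the 6 saline mice. It was -0.52, -0.29, -0.57, -0.57 and -0.23 in isotype mice 1, 2, 3, 1-2 and 2-2, a mean of -0.44 (SD 0.16, n = 5), and -0.22 to 0.02 in the anti-RGMb mice, a mean of -0.12 (SD 0.09, n = 6). Every isotype mouse was below every anti-RGMb mouse, by a small gap between isotype mouse 2-2 and anti-RGMb mouse 2. The number of cilium genes below the lowest saline mouse of the same experiment was 33, 29, 34, 32 and 24 in these isotype mice and 11 to 28 in the anti-RGMb mice. Above the highest saline mouse there were 1, 2, 1, 2 and 3 in the isotype mice and 0 to 9 in the anti-RGMb mice. Each experiment had only 3 saline mice, and the same counts over all genes were not made. These counts therefore have no background to be read against.

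Other genes of the motile cilium were read from lists that do not overlap with the 36 but were also chosen with earlier results of these data known. Of 57 measured further genes of ciliated cells, 45 fell and 0 rose in isotype mice (median -0.44), and 33 rose and 0 fell with anti-RGMb against isotype (median 0.32). Cfap161 fell by 0.66, Cfap52 by 0.62 and Nme9 by 0.62. Of 24 further spoke, nexin and central pair genes, 18 fell (median -0.42), among them Spag6l by 0.73, Stk36 by 0.55 and Cfap46 by 0.54, and 15 rose with anti-RGMb.

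Of 19 further dynein and tektin genes, 13 fell and 2 rose (median -0.32), with Tekt5 at -0.81, Dnaic1, a dynein intermediate chain, at -0.63, and Dnah8, a dynein chain best known from sperm, at 0.86 (adjusted p = 1.6e-06). Against isotype, 9 of them rose and 1 fell with anti-RGMb. Of 13 dynein assembly factors 7 fell and 1 rose (median -0.20); Lrrc6 fell by 0.70 and Daw1 by 0.42 at a dim probe set, and Tbc1d31, a centrosomal protein that stands in this list, rose by 0.81. Transport genes that primary cilia share moved less: of 48, 23 fell and 2 rose (median -0.18), with Bbs4 at -0.53, Ift43 at -0.40 and Arl3 at -0.38, and 10 rose with anti-RGMb.

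The regulators that precede ciliary assembly did not fall as a list. Of 18 measured, 6 rose and 2 fell in isotype mice (median 0.05). Plk4, the kinase that starts centriole duplication and is also used by dividing cells, rose by 1.00 ± 0.09 (adjusted p = 1.3e-07) and fell with anti-RGMb against isotype by 0.58 (adjusted p = 2.1e-04). Cdc20b, which acts when new centrioles are released, rose by 0.46 ± 0.07 (adjusted p = 6.6e-05), and Foxa2, an airway epithelial factor, fell by 0.47 ± 0.07 (adjusted p = 1.9e-05). Deup1, a builder of the deuterosome on which many centrioles form, and Mcidas, a switch into the multiciliated fate, were picked after their values were seen: Deup1 rose by 0.59 ± 0.10 (adjusted p = 1.5e-04) and Mcidas by 0.25 ± 0.06 (adjusted p = 0.00312). Deup1 was also higher in anti-RGMb than in saline mice, by 0.54 ± 0.10 (adjusted p = 0.00154). In saline mice of experiments 1 and 2, Cdc20b (log2 intensity 6.23 and 7.47) and Deup1 (6.3 and 7.69) were about as dim as Ccno (6.11 and 7.74). Mcidas was brighter, at 7.05 and 8.47. Ccno, in the main list, moved in the same direction as Deup1, Cdc20b and Mcidas in isotype mice. Others of this list did not: Ccdc78 was at -0.20 (limma adjusted p = 0.0116). Gmnc (-0.06), Trp73 (-0.15), Foxn4 (0.05) and Myb (0.21) did not pass the test.

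Relatives of the members that work outside motile cilia were read for comparison. Of 19 measured, 5 fell and 2 rose (median -0.07). Dynlrb1, the widely expressed partner of Dynlrb2, fell by 0.17 (adjusted p = 0.019) and Mlf2 by 0.16 (adjusted p = 0.0128), against falls of 0.59 for Dynlrb2 and 0.41 for Mlf1. Tubb5, a general tubulin, rose by 0.38 (adjusted p = 1.4e-05), and Rfx1 and Dync1h1 had differences of 0.05 (adjusted p = 0.531) and 0.07 (adjusted p = 0.543). The differences between relatives were not tested. Tppp, the relative of Tppp3 best known from myelin, fell by 0.90 (adjusted p = 2.1e-07).

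Among markers of other epithelial cells, the club cell list moved with the cilium genes, and the goblet cell list moved the other way in isotype mice. Of 14 club cell markers, 10 fell in isotype mice (median -0.50) and 10 rose with anti-RGMb against isotype (median 0.49). Pon1, Scgb3a2 and Cyp2f2 fell by 3.13, 1.52 and 0.71. Of 11 goblet cell markers 8 rose in isotype mice (median 1.70), with Clca1 at 5.37, Slc26a4 at 4.83 and Agr2 at 2.44, and with anti-RGMb against isotype 1 fell (median -0.05). Of 12 general epithelial markers 4 fell (median -0.12) and 1 rose with anti-RGMb, the transcription factor Nkx2-1 by 0.24, and the level of these 12 was -0.20 to -0.03 in the isotype mice and -0.07 to 0.05 in the saline mice. Of 8 basal cell markers 2 fell and 0 rose, and of 9 neuroendocrine and tuft cell markers 1 fell and 2 rose.

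Markers outside the airway moved too. All 12 leukocyte markers rose in isotype mice (median 0.97), all 12 endothelial markers fell (median -0.47), and of 15 alveolar epithelial markers 10 fell and 1 rose (median -0.30). Whether a larger share of leukocyte RNA accounts for part of the lower cilium level was not tested. Of 12 heart and striated muscle markers, 10 fell in isotype mice (median -1.62) and 6 rose with anti-RGMb (median 1.23). In these markers saline mice 1 and 2-2, at 0.95 and 0.69, stood above the other saline mice, at -0.49 to -0.27, and they also had the highest saline cilium levels, 0.11 and 0.10. Isotype mice 1, 2, 3, 1-2 and 2-2 were at -1.60, -0.38, -1.64, -1.63 and -1.28, and anti-RGMb mice at -1.28 to 0.87.

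Within groups, the order of the mice was in part shared between the cilium and other levels. Isotype mice 2 and 2-2, the highest isotype mice in cilium level, were the highest in club cell level, -0.36 and -0.47 against -0.88 to -0.71, and in goblet cell level, 2.96 and 2.58 against 0.97 to 1.79. Anti-RGMb mouse 3, the highest of its group in cilium level at 0.02, was the highest of its group in the club, goblet and heart marker levels too. Whether the lung pieces held unequal amounts of airway or of tissue near the heart was not tested. With the heart and muscle level of each mouse as a further term, an alternative chosen after the data were seen, 14 cilium genes fell in isotype mice, all among the 31 (median -0.24), where 13.6% of all genes fell. These were Rfx2, Dnah3, Tekt2, Tekt4, Rsph4a, Rsph9, Spag16, Ak7, Ift88, Ift172, Tppp3, Mns1, Enkur and Cdhr3. In that setting 3 rose with anti-RGMb against isotype, namely Tppp3, Tekt2 and Mns1 (median 0.15), a share near the 7.06% of all genes that rose. With arrays centred on the general epithelial markers, also chosen after the data were seen, 24 fell (median -0.29) and 14 rose (median 0.24), where 9.85% of all genes fell and 5.16% rose. That centring moved the median of all genes by 0.13 in isotype minus saline, and 71.3% of the genes called there were then higher, against 40.9% without it. In anti-RGMb minus isotype 23.7% of the calls were then higher, against 52.6%, and in anti-RGMb minus saline 91.2%, against 65.6%.

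**Figure D5:**
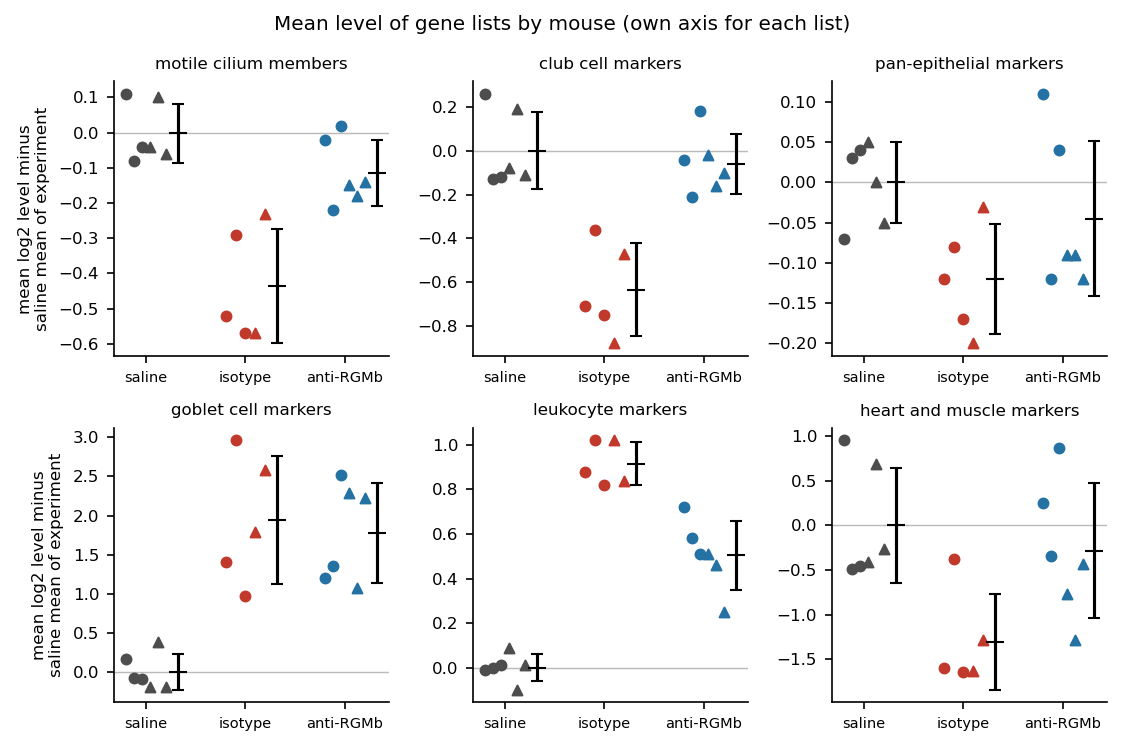
Mean log2 level per mouse (points) of the 36 cilium genes and of marker lists for other cells, relative to the saline mice of the same experiment, in saline, isotype and anti-RGMb mice. The group means of the cilium, club and heart or muscle levels are lowest in isotype mice, where the leukocyte level is highest, at 0.82 to 1.02. In the heart and muscle markers isotype mouse 2, at -0.38, lies among the mice of the other groups.

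The X-box core was set beside the changes. Of the 22 genes with the core in their promoter window, all of them measured, 17 fell, 1 rose and 4 did not pass (median -0.36), and the 9 measured genes without it all fell (median -0.48); no test was made. Both the gene that rose, Ccno, and the 4 that did not pass, Rfx3, Lrrc23, Ift57 and Cdhr4, have the core. Among the other lists, the core was in 8 of 10 dynein assembly factors with a window (80%), in 12 of 22 further spoke, nexin and central pair genes (54.5%), in 19 of 44 further transport genes (43.2%), in 22 of 54 further ciliated cell genes (40.7%), in 6 of 15 regulators (40%) and in 5 of 18 further dynein and tektin genes (27.8%). Among markers of other cells it was in 2 of 12 alveolar epithelial (16.7%), 2 of 12 heart and muscle (16.7%), 1 of 8 goblet cell (12.5%) and 1 of 9 neuroendocrine and tuft cell genes (11.1%). It was in none of the 9 club cell, 9 leukocyte, 9 general epithelial, 6 endothelial and 4 basal cell genes with a window, and in 2 of 17 relatives outside motile cilia (11.8%).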

How the data were processed

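The values, deposited by the authors, are linear probe set intensity from Affymetrix Mouse Gene 1.0 ST arrays, and per the submitters' processing notes RMA (background correction, normalization, probe summary) produced them; the sources used here do not name its version. For each intensity the log2 was taken, with no constant added. Of 24679 probe sets, 21354 had 1 gene symbol and were used, 1275 had several and 2050 none; where several served 1 gene (893 genes), the brightest one was used, so that 19751 genes were tested. All 17 arrays entered 1 linear model per gene, group plus experiment, in limma 3.58.1 under R 4.3.3 (eBayes, prior degrees of freedom 4.32). Values within experiments and the interaction came from another model in which each group of each experiment had its own mean. Tests were 2-sided, with Benjamini-Hochberg adjustment over the genes tested and a threshold of 0.05.

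Tested on simulated data with 200 changed genes, the fit recovered 84%, 86% and 88% of changes of 0.5 log2 units and 100%, 99% and 99% of changes of 1 unit for the 3 comparisons in the order in which the report gives them; 11 of 195, 11 of 196 and 13 of 200 calls were false. The simulation changed 200 of 19751 genes, with independent noise, where isotype minus saline called 2878 genes higher and 4156 lower. Changes under 0.5 log2 units were not simulated, and the median changes of the members were -0.42, 0.32 and -0.11. The recovery and false-call rates therefore need not hold for these comparisons. The number of arrays limits the precision. All 36 measured members are named. Values by mouse are given for Foxj1, for the called members with the largest changes in each comparison (up to 6 in isotype minus saline and up to 4 in each of the others, where anti-RGMb minus saline had 1 called member) and for the 2 with the smallest change in isotype minus saline; Ccno was added after its values were seen; of each other list up to 3 genes with the smallest p were eligible, besides 5 relatives of members. Members and lists were chosen with earlier results of these data known, so no list was tested. Alternatives were other normalizations, filters, probe set rules, blocks, subsets of mice, and the 2 settings named above as chosen after the data were seen.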

Additional observations from a re-analysis of the deposited data

Results flagged for a closer look

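Each of the 36 genes was looked at in the isotype and anti-RGMb mice and in the saline mice, 108 sets of mice in all. The search was for a mouse whose distance from the nearest other mouse takes up a large share of the range of its group. At the cutoff used, chance gives this in about 1 in 20 sets. The share was 0.673 to 0.815 in the 6 sets that passed the cutoff. In the isotype mice these were Dynlrb2 in mouse 2 at -0.21, where the others were at -0.73 to -0.60, and 2 values of mouse 3. Mouse 3 stood at -0.29 for Lrrc23, with the others at -0.10 to -0.04, and at -0.46 for Ccdc40, with the others at -0.27 to -0.23. In the anti-RGMb mice, Dnah11 was at -0.32 in mouse 2-2 (others -0.14 to -0.05), Mns1 at -0.30 in mouse 2 (others -0.09 to 0.01) and Spef2 at 0.11 in mouse 3-2 (others -0.18 to -0.11).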

How the results depend on the processing

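No called change of a cilium gene reversed its sign under the settings tried. Without a term for the experiment, whose arrays differ in overall level, isotype minus saline gave 34 genes higher and 1 lower, with 0 cilium genes higher and 0 lower (median -0.55; 2 lower at unadjusted p under 0.05, limma). Anti-RGMb minus isotype then gave 0 genes higher and 0 lower and 0 cilium genes (0 at unadjusted p under 0.05; 34 genes higher and 39 lower of all), and anti-RGMb minus saline 10 higher and 0 lower, with 0 cilium genes lower (0 at unadjusted p under 0.05; 101 genes higher and 0 lower of all).
Within experiment 1, isotype minus saline gave 1740 genes higher and 2285 lower, with 0 cilium genes higher (1 at unadjusted p under 0.05). Anti-RGMb minus isotype gave 661 and 618, with 8 cilium genes higher, and anti-RGMb minus saline 119 lower. Within experiment 2, anti-RGMb minus isotype gave 1705 genes higher and 2226 lower, with 6 cilium genes higher and 1 lower. Anti-RGMb minus saline gave 524 genes higher and 129 lower. These fits have fewer mice per group.
In anti-RGMb minus saline the genes lower, 442 in all, numbered 700 with arrays centred on their median (54.6% of calls higher, against 65.6%, and 2 cilium genes lower). They numbered 680 without the dimmest 40% of genes (54.8% higher). With only the mice compared, 873 genes were lower and 1136 higher, with 3 cilium genes lower and 1 higher. Quantile normalization within experiments gave 2 cilium genes lower, and 575 of all genes lower. Without the dimmest 40% of genes, 25 cilium genes remained to be tested, and 0 rose in isotype mice (0 at unadjusted p under 0.05, limma), since Ccno is left out.
With the heart and muscle level as a term, isotype minus saline gave 2682 genes lower and 14 cilium genes lower (median -0.24), and anti-RGMb minus isotype 1394 higher, with 3 cilium genes (median 0.15). With arrays centred on general epithelial markers, isotype minus saline gave 4844 higher and 1946 lower (median of the cilium genes -0.29). Anti-RGMb minus isotype gave 1020 higher and 3281 lower, with 14 cilium genes higher and 1 lower. Anti-RGMb minus saline gave 1049 higher and 101 lower, with 1 cilium gene higher. The cause of these shifts was not tested.
With the replicate block (the mouse number as a block), 29 cilium genes fell in isotype minus saline, where 3671 of all genes fell. Foxj1 and Dnah2 did not pass there (limma adjusted p = 0.0655 and 0.103). In anti-RGMb minus isotype 22 cilium genes rose, where 1839 of all genes rose. Anti-RGMb minus saline gave 233 genes lower, and the other counts stayed within 1.5 times. Residuals of same-numbered mice correlated at -0.6 to 0.3, over 0.1 in 3 of 16 pairs, so the numbers were not taken to pair mice.
Leaving out 1 mouse in turn gave 28 to 32 cilium genes lower and 1 higher in isotype minus saline (median -0.51 to -0.36; all genes 2532 to 3004 higher, 3711 to 4354 lower). Anti-RGMb minus isotype gave 17 to 29 higher and 0 to 1 lower (median 0.26 to 0.39; all genes 1860 to 2355 higher, 1522 to 2111 lower). Anti-RGMb minus saline gave 1 to 2 lower and 0 to 1 higher (median -0.15 to -0.09; all genes 689 to 961 higher, 207 to 654 lower). Of the calls, 29 of 32, 16 of 28 and 1 of 1 held in each of these fits; Dnah9 lost its rise in 12 of 17.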
